A study of Saccharomyces cerevisiae with 18 samples.

Results

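Overexpression of the phosphatase gene PPZ1 was examined here at its earliest sampled time, 0.5 h after galactose was added, across all genes of Saccharomyces cerevisiae. The comparison takes 6 of the 18 libraries of the series. They are the 3 from ZCZ01 and the 3 from wild type whose library names carry that time, paired by experiment. ZCZ01 derives from BY4741 and carries PPZ1 behind the galactose-inducible GAL1-10 promoter in place of its own, while the wild type is BY4741 itself, a haploid auxotroph that carries no such construct. Both strains were pregrown on raffinose and both received galactose, so the comparison holds the sugar constant. ZCZ01 was used as 1 strain, the labels name no other transformant, and no library from before galactose was analysed here, so a difference present on raffinose cannot be told apart from one that arose within 0.5 h. Sample titles give other times than the library names for 4 of these 6 libraries, and the library names were followed. In the titles all libraries of 1 experiment share 1 time, so each title time joins libraries named 0.5, 2 and 4 h. The titles' 0.5 h is thus experiment 1 alone. With the titles' times no gene passed the test, with 302 higher and 384 lower at an unadjusted p under 0.05.

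Ppz1 is a Ser/Thr phosphatase of fungi whose catalytic domain resembles that of protein phosphatase 1. It is held in check by the inhibitory subunits Hal3 and Vhs3 and is known for its control of potassium and sodium balance. Its excess is highly toxic to yeast. Among the largest coordinated gene sets of yeast are those for building ribosomes, which rise with growth signals through protein kinase A and TORC1, and the stress and reserve carbohydrate genes under Msn2 and Msn4, which these signals hold down.

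Reads came from the 3′ end of transcripts (QuantSeq), and levels are given as CPM, the reads of a gene relative to all reads of its library in gene probes after scaling by edgeR's TMM factors. The 6 libraries held 1178878 to 1920193 counts, with 11.3 to 11.7% of them in the 10 highest genes, so depth differed less than 2-fold between them. The 5 MATa-specific genes checked had 40 to 1583 counts in every library and the 3 MATalpha-specific genes at most 4, while LEU2 and MET17, deleted in BY4741, had at most 1. URA3, also deleted in BY4741, went against that label, with 20, 9 and 6 reads in ZCZ01, against 20, 17 and 18 in wild type, and the source of these reads was not tested. The 5658 genes with enough reads were tested for ZCZ01 against wild type with the quasi-likelihood test of edgeR, and a gene is called higher or lower at a Benjamini-Hochberg adjusted p under 0.05. In bulk cultures, less of a transcript in each cell and fewer cells that make it cannot be told apart. List members at an unadjusted p under 0.05 are also counted, in the fit reported without the share over all genes beside them. Values per library are given in the order of experiments 1, 2 and 3. At 0.5 h, experiments 2 and 3 were nearly alike, with a chi-square per degree of freedom between them of 1.12 in ZCZ01 and 1.54 in wild type, against 20.8 to 27.4 for either against experiment 1. Experiment 3 held 1.323 to 1.335 times the counts of experiment 2 in both strains at 0.5, 2 and 4 h. The cause of this likeness was not tested. Experiments 2 and 3 are not stated to be separate cultures, so agreement in all 3 experiments can weigh less than it seems. Adjusted p-values, which count experiments 2 and 3 as 2, can be too small. The main groups of calls are therefore also given from a fit in which these 2 experiments were summed as 1. Experiment 1 also differed in repeated genes: 24 genes with at least 100 counts in all 4 libraries of experiments 2 and 3 had 0 in both of experiment 1, among them the CUP1, ASP3 and YRF1 copies and Ty frames. Whether its repeated reads were counted in another way was not tested. Only 1 of these 24 was called, YLR154C-G.

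The construct could be read directly in the counts. PPZ1 (YML016C, chrXIII:239458-241536, minus strand, R64) had 834, 169 and 226 reads in ZCZ01, against 16, 8 and 7 in wild type. Its levels were 508, 131 and 131 CPM in ZCZ01, against 8.76, 7.03 and 4.59 CPM in wild type. Every ZCZ01 library lay above every wild type library, by a log2 ratio of 5.17 (SE 0.56, adjusted p = 0.000545). Experiment 1 stood apart with the highest PPZ1 in ZCZ01. The genes on either side did not follow: log2 ratios were 0.06 for PSP2 and 0.14 for YML018C on one side, and -0.13 for TAF11 and 0.13 for TRM9 on the other, with adjusted p from 0.797 to 0.960. GAL1, the galactokinase gene whose promoter the construct borrows, had 8082, 10669 and 10720 CPM in ZCZ01, against 8209, 11590 and 10909 CPM in wild type, a log2 ratio of -0.06 (SE 0.09, adjusted p = 0.805). None of the 7 galactose genes was called by edgeR, none at an unadjusted p under 0.05 and none by DESeq2.

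Of the other 6 genes for Ppz phosphatases, their inhibitors and the related PP1, none was called by edgeR or DESeq2, and 1 was lower at an unadjusted p under 0.05. That 1 was VHS3, an inhibitory subunit of Ppz1, which had 127, 136 and 161 CPM in ZCZ01, against 226, 203 and 215 CPM in wild type, without overlap, but its log2 ratio of -0.61 (SE 0.21) gave an adjusted p of 0.115. GLC7, the PP1 catalytic gene, had 268, 117 and 115 CPM in ZCZ01, against 53.7, 194 and 176 CPM in wild type. It was the higher in ZCZ01 in experiment 1 and the lower in experiments 2 and 3.

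At 0.5 h, 258 genes were called higher in ZCZ01 (4.56% of those tested) and 130 lower (2.30%), while 106 were at least 2-fold higher (1.87%) and 36 at least 2-fold lower (0.636%). With scaling by total counts in place of TMM, 208 were called higher and 162 lower, so the higher ones made up 56.2% of all calls. The changes were small beside that of PPZ1. Only 5 genes passed a log2 ratio of 2 upwards and 3 passed it downwards. All 258 higher genes were higher in each of the 3 experiments, and 128 of the 130 lower genes were lower in each. The 3 levels of ZCZ01 lay wholly above those of wild type in 230 of the 258 higher genes, and wholly below in 106 of the 130 lower genes, against 11.5% above and 10.0% below among all genes tested. The genes were called from these same libraries, so a shared direction across experiments and levels without overlap are in part fixed by the choice. With experiments 2 and 3 summed, 5 genes kept an adjusted p under 0.05, all higher: PPZ1, AAH1, LTV1, NSA2 and RRP12, each at 0.0455. There, 384 genes were higher and 262 lower at an unadjusted p under 0.05, and the smallest adjusted p among lower genes was 0.0511. Without experiment 3, 11 genes were called higher and 3 lower, and without experiment 2, 15 higher and 4 lower. Without experiment 1 the calls were 778 and 660, from the 2 experiments that were nearly alike.

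**Figure D1:**
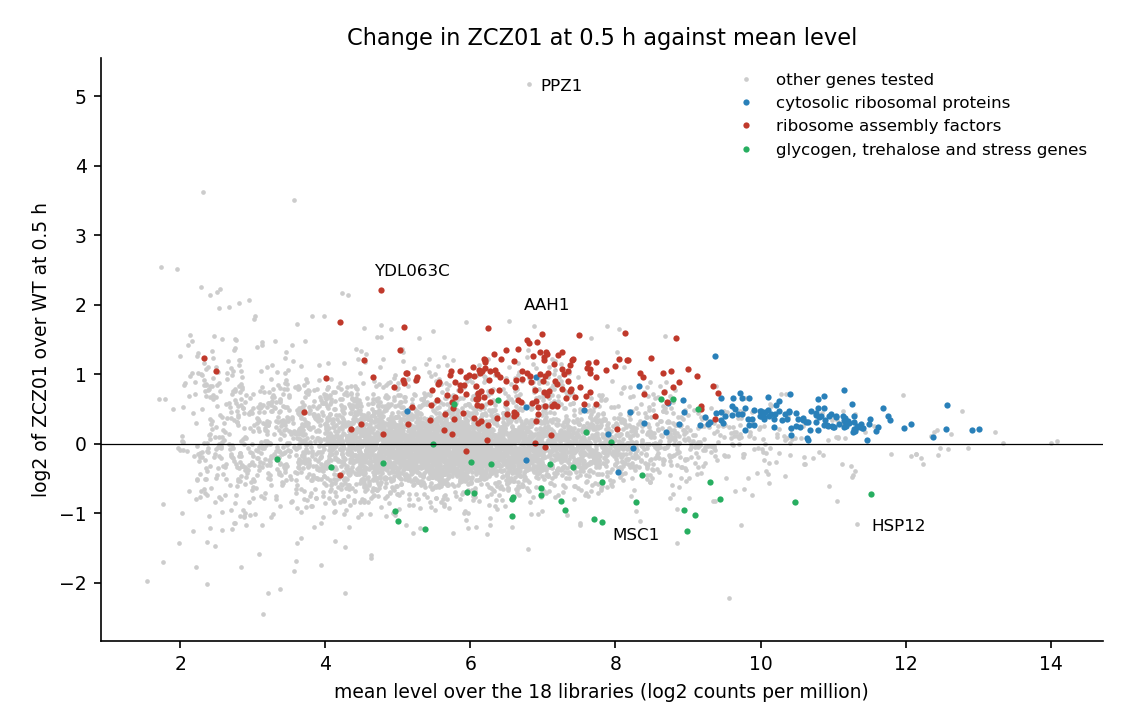
Log2 ratio of ZCZ01 over WT at 0.5 h (vertical) against mean level (horizontal, log2 CPM) for the 5658 genes tested, 1 point a gene, with PPZ1 and 4 others named. Ribosome assembly factors (red) sit mostly above 0 with a median of 0.88, ribosomal protein genes (blue) form a narrow band at a median of 0.36, and glycogen, trehalose and stress genes (green) lie mostly below 0.

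Promoters of the genes that carry these results are shown first, since the genes called higher and those called lower differ in their upstream letters. Windows ran from 300 to 51 bases before the annotated start (250 bases, RefSeq R64 sequence), and 3 motifs were searched on both strands: PAC (CGATGAG), which the repressors Dot6 and Tod6 bind, RRPE (GAAAAATTT), which Stb3 binds, and the stress response element STRE (AGGGG), which Msn2 and Msn4 bind. Matches of different motifs shared bases in 4 of 5972 windows. The first 4 promoters belong to the 4 genes that passed beside PPZ1 with experiments 2 and 3 summed, and the last 3 to the genes with the smallest p among called genes that were lower in all 3 experiments (HSP12, RGI1 and MSC1). Each reads 5′ to 3′ towards the gene, with motif matches in capitals. AAH1 is at chrXIV:359296-359545 (plus), LTV1 at chrXI:176481-176730 (plus), NSA2 at chrV:414230-414479 (minus) and RRP12 at chrXVI:529423-529672 (plus). HSP12 is at chrVI:106956-107205 (plus), RGI1 at chrV:291766-292015 (plus) and MSC1 at chrXIII:16727-16976 (minus).
AAH1: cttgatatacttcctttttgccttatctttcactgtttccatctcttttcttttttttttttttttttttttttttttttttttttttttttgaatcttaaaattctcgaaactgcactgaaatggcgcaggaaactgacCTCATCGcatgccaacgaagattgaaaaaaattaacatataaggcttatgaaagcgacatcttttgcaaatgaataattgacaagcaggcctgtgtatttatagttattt
LTV1: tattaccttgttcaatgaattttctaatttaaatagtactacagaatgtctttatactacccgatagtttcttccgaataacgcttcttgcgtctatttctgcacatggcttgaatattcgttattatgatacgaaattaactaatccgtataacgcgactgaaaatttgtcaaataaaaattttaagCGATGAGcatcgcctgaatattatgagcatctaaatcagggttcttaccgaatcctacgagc
NSA2: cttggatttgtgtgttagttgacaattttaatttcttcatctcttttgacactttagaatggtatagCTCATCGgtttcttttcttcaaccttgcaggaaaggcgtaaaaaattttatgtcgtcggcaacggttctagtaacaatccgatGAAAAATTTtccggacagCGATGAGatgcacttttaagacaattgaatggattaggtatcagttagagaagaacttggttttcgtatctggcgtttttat
RRP12: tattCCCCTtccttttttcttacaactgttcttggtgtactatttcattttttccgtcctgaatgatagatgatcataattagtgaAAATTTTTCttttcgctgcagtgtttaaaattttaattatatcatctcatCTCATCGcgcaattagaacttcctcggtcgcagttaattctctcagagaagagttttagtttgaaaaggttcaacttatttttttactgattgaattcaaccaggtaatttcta
HSP12: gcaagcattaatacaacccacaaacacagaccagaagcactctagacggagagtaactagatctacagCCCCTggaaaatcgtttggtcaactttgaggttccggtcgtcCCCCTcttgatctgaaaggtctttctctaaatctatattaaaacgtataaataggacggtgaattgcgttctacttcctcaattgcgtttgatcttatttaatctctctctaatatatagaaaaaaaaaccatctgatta
RGI1: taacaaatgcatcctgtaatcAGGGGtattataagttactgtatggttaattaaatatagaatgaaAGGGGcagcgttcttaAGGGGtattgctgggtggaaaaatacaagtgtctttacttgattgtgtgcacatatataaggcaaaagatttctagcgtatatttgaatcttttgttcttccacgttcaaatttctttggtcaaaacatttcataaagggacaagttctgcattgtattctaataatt
MSC1: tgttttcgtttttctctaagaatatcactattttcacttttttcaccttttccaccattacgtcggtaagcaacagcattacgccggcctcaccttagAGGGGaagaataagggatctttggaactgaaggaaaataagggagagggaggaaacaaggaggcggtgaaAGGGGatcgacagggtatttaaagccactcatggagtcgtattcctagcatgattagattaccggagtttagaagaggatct

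The AAH1 and LTV1 windows each hold 1 PAC match, that of NSA2 holds 2 PAC and 1 RRPE, and that of RRP12 holds 1 PAC, 1 RRPE and, at its far end, 1 STRE. Those of HSP12 and MSC1 hold 2 STRE matches each and that of RGI1 holds 3, with no PAC or RRPE. Across all 5972 promoters of this length, 6.58% held PAC, 6.33% RRPE, 1.76% both and 19.2% STRE. Of the 254 promoters of genes called higher, 47.6% held PAC, 36.2% RRPE, 20.9% both and 10.6% STRE. Of the 126 promoters of genes called lower, 1.59% held PAC, 1.59% RRPE, none both and 55.6% STRE, and 20.6% held 2 or more STRE matches against 2.85% of all promoters.

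Read the other way, the 104 tested genes with both PAC and RRPE had a median log2 ratio of 0.83, and 53 were called higher and none lower. Their medians were 0.89, 0.71 and 0.74 in experiments 1, 2 and 3. Genes with neither had a median of -0.02, with 94 of 4832 called higher and 122 lower. With PAC, 379 genes had a median of 0.52, with 121 called higher and 2 lower. With RRPE, 370 genes had a median of 0.34, with 92 called higher and 2 lower. The 156 genes with 2 or more STRE matches had a median of -0.28, with 26 called lower and 2 higher. The 1063 genes with any STRE match were nearer to all genes, at a median of -0.125, with 70 called lower and 27 higher. A match is a string of letters and was not shown to be bound here, and windows can run into a neighbouring gene.

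**Figure D2:**
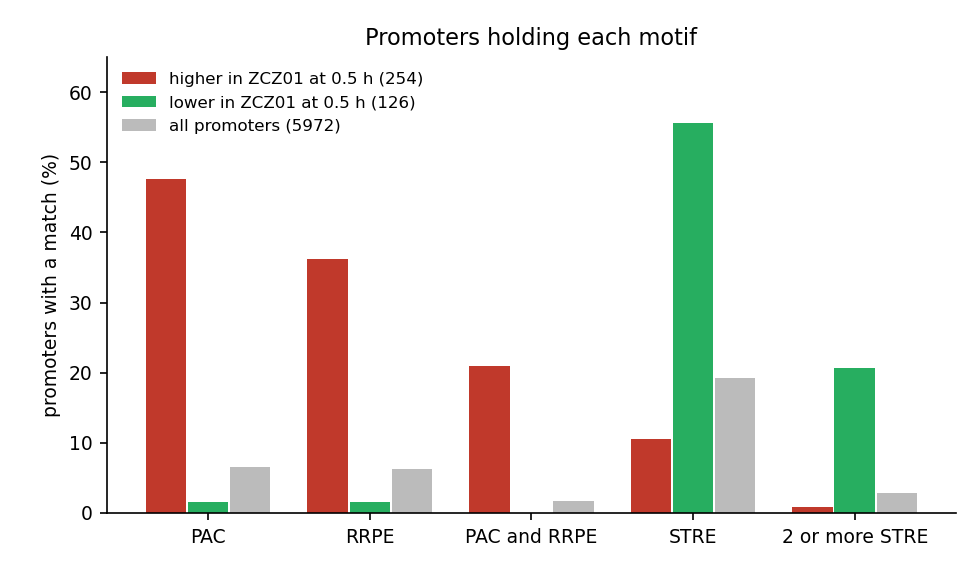
Percent of promoters (vertical) with at least 1 match of each motif (horizontal), for genes called higher in ZCZ01 at 0.5 h (red, 254 promoters), genes called lower (green, 126) and all promoters (grey, 5972). PAC was found in 47.6% of the red, 1.59% of the green and 6.58% of the grey set, and STRE in 10.6%, 55.6% and 19.2%.

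Genes for the assembly of ribosomes made up 112 of the 258 genes called higher. They are 112 of the 188 assembly factors tested, none of which was called lower, and the median log2 ratio was 0.88 against 0.01 over all genes tested. The medians were 0.96, 0.78 and 0.77 in experiments 1, 2 and 3. Of the 188, 166 were higher in all 3 experiments, against 1225 of all 5658 genes tested. In the fit with experiments 2 and 3 summed the median was 0.87, with 3 factors at an adjusted p under 0.05 and 139 higher and none lower at an unadjusted one.

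Factors of the 40S subunit act in the nucleolus on the 5′ part of the pre-rRNA and in export of the precursor. Of 74 tested, 48 were called higher and none lower, with a median log2 ratio of 0.86. LTV1, an adaptor for export of the 40S precursor, had 93.9, 54.3 and 60.7 CPM in ZCZ01, against 22.5, 28.1 and 16.4 CPM in wild type, a log2 ratio of 1.66 (SE 0.23, adjusted p = 0.00101). RRP12, which helps both precursors leave the nucleus, had 174, 64.4 and 77.5 CPM in ZCZ01, against 59.7, 27.2 and 24.3 CPM in wild type. The strains did not overlap in either gene, although RRP12 was more than 2 times as high in experiment 1 as in experiments 2 and 3 in both strains, and its log2 ratio was 1.50 (SE 0.17, adjusted p = 0.000545).

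ECM16, the helicase that strips the U3 snoRNA from the precursor, had 185, 139 and 147 CPM in ZCZ01, against 40.5, 53.6 and 67.5 CPM in wild type (log2 ratio 1.56, SE 0.20, adjusted p = 0.000919). ENP2, of the same early particle, had 193, 149 and 160 CPM in ZCZ01, against 84.9, 59.7 and 71.5 CPM in wild type (log2 ratio 1.21, SE 0.15). Neither gene overlapped between strains. The largest fitted ratio of the list, 1.75 for the helicase gene DHR2, rests on 21, 17 and 15 reads in ZCZ01, against 6, 4 and 5 in wild type. FAF1, needed for 18S rRNA, was also scarce, with 61, 30 and 30 reads in ZCZ01, against 16, 8 and 12 in wild type (log2 ratio 1.68, SE 0.28).

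Factors of the 60S subunit had the highest median of the lists with more than 1 gene. Of 74 tested, 54 were called higher and none lower, and the median log2 ratio was 1.01. In all 3 experiments 73 were higher, against 1225 of all 5658 genes tested. NSA2, which acts in processing of the 27S pre-rRNA, had 152, 117 and 93.7 CPM in ZCZ01, against 50.9, 22.0 and 47.9 CPM in wild type (log2 ratio 1.59, SE 0.22, adjusted p = 0.00104). NOP7, of the complex with Erb1 and Ytm1, had 349, 220 and 221 CPM in ZCZ01, against 58.6, 96.6 and 108 CPM in wild type (log2 ratio 1.59, SE 0.24, adjusted p = 0.00183). In NOP7 the strains were furthest apart in experiment 1, which had the highest ZCZ01 level and the lowest wild type level.

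RPF1, of the early 60S precursor, had 89.6, 83.0 and 76.9 CPM in ZCZ01, against 31.2, 34.3 and 32.8 CPM in wild type (log2 ratio 1.35, SE 0.16). The rRNA methyltransferase gene RRP8 had 168, 136 and 138 CPM in ZCZ01, against 55.9, 66.8 and 60.3 CPM in wild type. MRT4, a relative of the stalk protein P0 that holds its place on the precursor, had 203, 146 and 137 CPM in ZCZ01, against 79.4, 57.1 and 72.1 CPM in wild type. No ZCZ01 level of these 3 genes came within the range of wild type. Log2 ratios were 1.28 for RRP8, 1.21 for MRT4, 1.18 for the helicase gene DBP3, 1.46 for SDA1, which acts in export of the 60S precursor, and 1.22 for YBL028C, with adjusted p from 0.000919 to 0.0027. The largest ratio of the list was 2.21 (SE 0.38, adjusted p = 0.00298) for YDL063C, known as SYO1, which carries Rpl5 and Rpl11 into the nucleus. It had 42, 33 and 29 reads in ZCZ01, against 11, 7 and 4 in wild type.

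**Figure D3:**
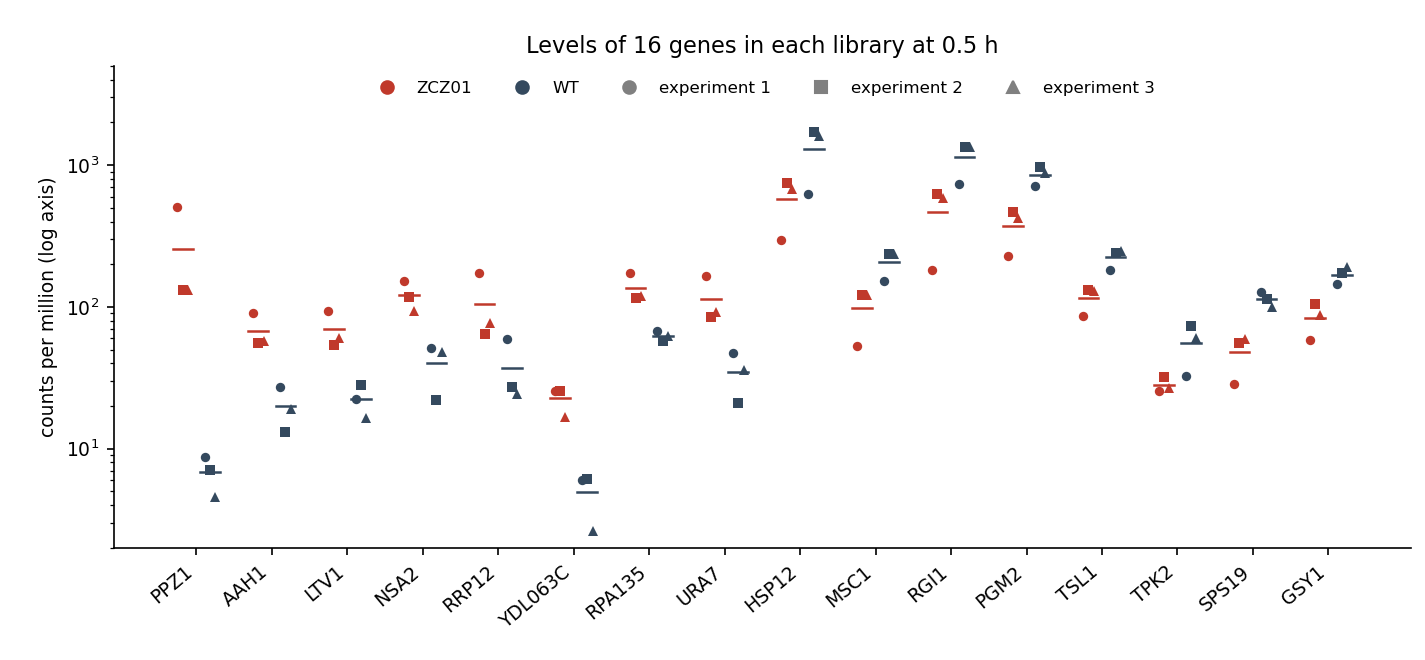
CPM (vertical, log axis) of 16 genes (horizontal) in each library at 0.5 h, ZCZ01 in red left of WT in dark blue, with symbols for experiments 1 to 3 and bars for the mean of 3. From PPZ1 to URA7 every ZCZ01 point lies above every WT point, and from HSP12 onwards the red points lie lower, with overlap in HSP12 through WT experiment 1.

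Proteins of the snoRNPs, which guide modification of rRNA, were partly included. Of 18, 7 were called higher and none lower, with a median log2 ratio of 0.63. NSR1, the yeast nucleolin, had 593, 417 and 395 CPM in ZCZ01, against 298, 107 and 123 CPM in wild type (log2 ratio 1.52, SE 0.21). Ratios were 1.27 for SRP40, a nucleolar chaperone, 1.24 for SNU13, which binds the box C/D and U4 RNAs, and 0.97 for NOP56, a box C/D core protein. Of 22 genes of the nuclear exosome and pre-rRNA nucleases, 3 were called higher: AIR1 (log2 ratio 1.34) and MTR4 (0.91), of the TRAMP complex that feeds the exosome, and LRP1 (0.69), an exosome cofactor. The median of these 22 was 0.54.

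RNA polymerase I transcribes the rRNA precursor. Of 13 genes for its subunits and factors, 5 were called higher and none lower, with a median log2 ratio of 0.44. RPA135, its second largest subunit, had 173, 115 and 120 CPM in ZCZ01, against 67.9, 57.1 and 62.3 CPM in wild type, a log2 ratio of 1.11 (SE 0.17, adjusted p = 0.00194). The largest subunit gene RPA190 had 184, 81.4 and 90.8 CPM in ZCZ01, against 54.8, 64.1 and 61.0 CPM in wild type (log2 ratio 0.92, adjusted p = 0.0361), so its difference was mainly that of experiment 1. RPA43 and RPA49 gave 1.14 and 0.82. Of the 7 subunits shared between polymerases, RPC40 (0.99), RPC19 (0.69) and RPB8 (0.68) were called higher. Of 19 genes for RNA polymerase III and its factors, which make 5S rRNA and tRNA, none was called by edgeR or DESeq2, 5 were higher and none lower at an unadjusted p under 0.05, and the median was 0.28.

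Genes for the ribosomal proteins themselves shifted by less. Of 137, 27 were called higher and none lower, none by 2-fold, with a median log2 ratio of 0.36 and medians of 0.36, 0.37 and 0.35 in experiments 1, 2 and 3. In the summed fit none had an adjusted p under 0.05, and 20 were higher and none lower at an unadjusted one. With scaling by total counts, 9 of the 137 were called and the median over all 137 was 0.30. The large subunit gene RPL25 had 3458, 2095 and 1968 CPM in ZCZ01, against 2457, 1072 and 1097 CPM in wild type (log2 ratio 0.77, adjusted p = 0.0443). RPS0B, of the small subunit, had 1605, 860 and 829 CPM in ZCZ01, against 720, 635 and 640 CPM in wild type (0.66). The strains overlapped across experiments in RPL25, since both were highest in experiment 1, and within each experiment ZCZ01 was the higher. Most of these genes are near-identical pairs, such as RPL9A (0.73) and its copy, between which 3′ reads may be divided unevenly.

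The wider translation machinery followed in part. Of 40 translation factors 6 were called higher, of 21 cytosolic tRNA synthetases 5, and of 29 tRNA modification enzymes 6, with none lower in any of the 3 lists and medians of 0.35, 0.36 and 0.49. NIP1, a subunit of the initiation factor eIF3, gave a log2 ratio of 1.09 (SE 0.26), the elongation factor gene YEF3 0.70, and the lysyl-tRNA synthetase gene KRS1 0.72. YEF3 had 6058, 3645 and 3558 CPM in ZCZ01, against 2500, 2719 and 2712 CPM in wild type. The tRNA methyltransferase gene TRM1 gave 1.13 and the pseudouridine synthase gene PUS1 1.08. Of 12 genes of nuclear transport for ribosomal cargo, the importin genes KAP123 (0.87) and SXM1 (0.65) were called higher. None of 74 mitochondrial ribosomal protein genes was called by edgeR or DESeq2, with a median of -0.16 and with none higher and 3 lower at an unadjusted p under 0.05.

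**Figure D4:**
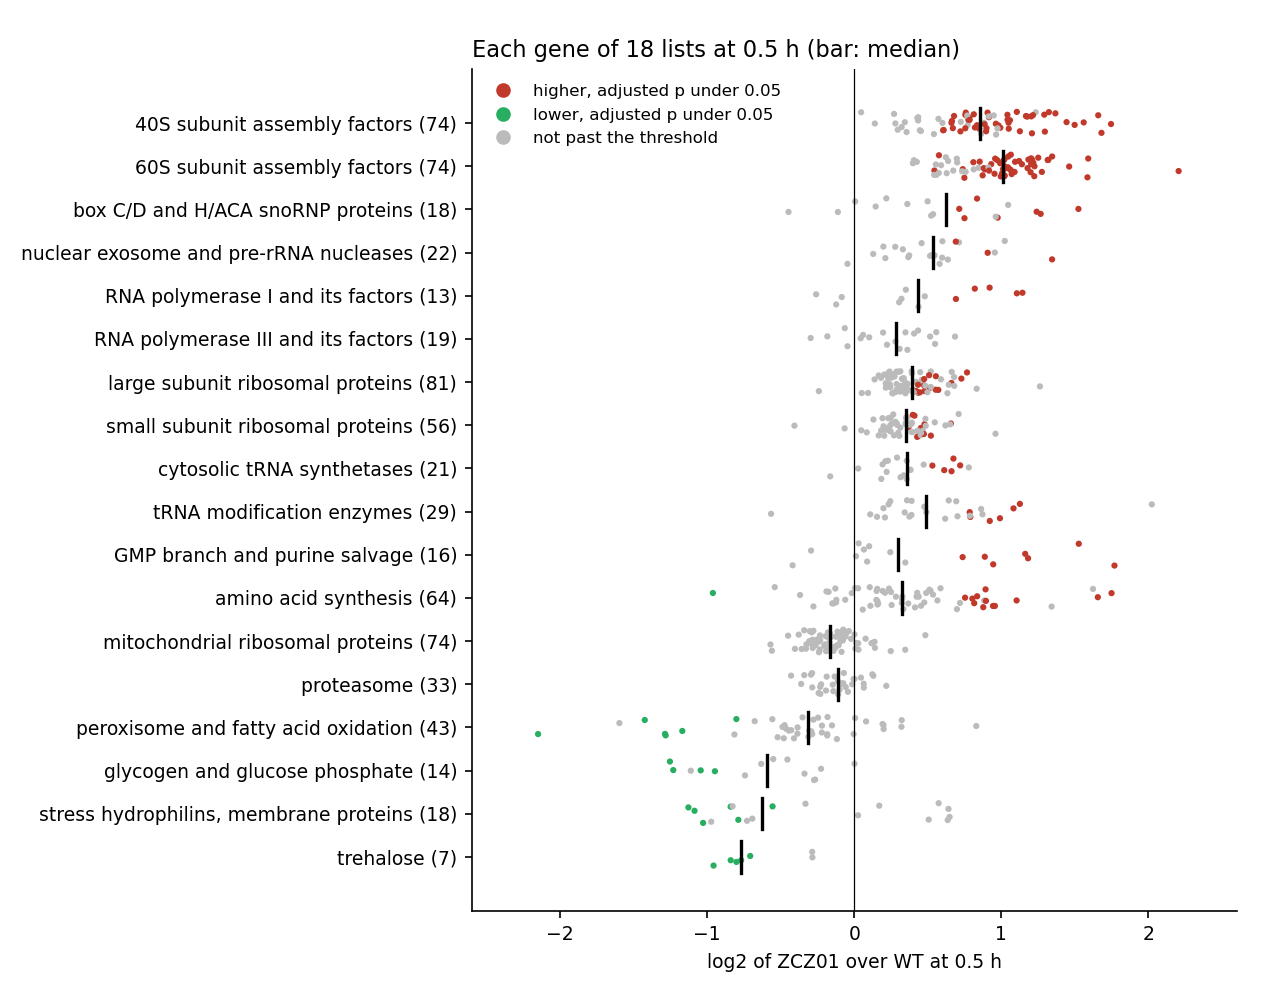
Log2 ratio of ZCZ01 over WT at 0.5 h (horizontal) for each gene of 18 lists (rows, with the number tested), red where called higher, green where called lower and grey otherwise, with a bar at each median. Medians run from 1.01 for 60S assembly factors to -0.77 for trehalose genes.

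Of 19 regulators of ribosome genes, 2 were called higher and 3 lower. TOD6, which encodes a repressor that binds PAC, had 17, 12 and 19 reads in ZCZ01, against 9, 1 and 1 in wild type (fitted log2 ratio 2.16, SE 0.52, adjusted p = 0.0228), and IFH1, a coactivator of ribosomal protein genes, gave 0.70. The lower ones included genes for subunits of protein kinase A. TPK2, a catalytic subunit gene, had 25.6, 31.8 and 26.6 CPM in ZCZ01, against 32.3, 73.8 and 60.3 CPM in wild type (log2 ratio -0.92, SE 0.26, adjusted p = 0.0465). BCY1, the regulatory subunit gene, named here after its values were seen, had 67.7, 90.7 and 109 CPM in ZCZ01, against 128, 134 and 131 CPM in wild type (-0.58, adjusted p = 0.0443). No ZCZ01 level of TPK2 or BCY1 reached the lowest of wild type.

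Nucleotide genes on the way to RNA precursors were among the higher ones. Of 16 genes of the GMP branch and purine salvage, 7 were called higher and none lower, with a median log2 ratio of 0.30. AAH1, the adenine deaminase, had 90.2, 55.8 and 57.8 CPM in ZCZ01, against 27.4, 13.2 and 19.0 CPM in wild type, a log2 ratio of 1.77 (SE 0.18) and an adjusted p of 0.000437, the smallest of any gene called higher. GUA1, the GMP synthase, had 328, 130 and 110 CPM in ZCZ01, against 110, 45.7 and 39.3 CPM in wild type (log2 ratio 1.53, SE 0.35), and the IMP dehydrogenase genes IMD4 and IMD2, close copies of each other, gave 1.18 and 1.16. In GUA1 experiment 1 was the highest in both strains, and its lowest ZCZ01 level equalled the highest of wild type to 3 digits. Of 11 genes of purine synthesis from its first step to AMP, 1 was called. Of 17 pyrimidine and PRPP genes, 2 were higher and 1 lower. URA7, the CTP synthase, had 165, 85.3 and 92.5 CPM in ZCZ01, against 47.6, 21.1 and 36.1 CPM in wild type (1.70, SE 0.22), the PRPP synthetase gene PRS3 gave 1.01, and FUR4, the uracil permease, was lower at -1.10 (SE 0.17). RKI1, which makes ribose 5-phosphate, gave 1.24.

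Of 64 amino acid synthesis genes, 12 were called higher and 1 lower, with a median log2 ratio of 0.33. Those with the largest ratios belong to arginine synthesis. CPA1, the small subunit of carbamoyl phosphate synthase, had 67.7, 106 and 94.3 CPM in ZCZ01, against 35.1, 28.1 and 20.3 CPM in wild type (log2 ratio 1.66, SE 0.24), and ARG1, argininosuccinate synthase, had 35, 20 and 42 reads in ZCZ01, against 10, 9 and 8 in wild type (1.75, SE 0.36). BAT1, the mitochondrial branched-chain aminotransferase, gave 1.10 (SE 0.14) and was separated in all libraries. The 1 lower gene was ARO9, an aromatic aminotransferase, with 116, 135 and 140 CPM in ZCZ01, against 247, 248 and 265 CPM in wild type (-0.96, SE 0.14, adjusted p = 0.00143). None of the 18 sulfate assimilation and methionine genes was called by edgeR or DESeq2, with none higher and 3 lower at an unadjusted p under 0.05.

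Reserve carbohydrate genes were on the lower side. Of 7 trehalose genes, 5 were called lower and none higher, with a median log2 ratio of -0.77, and of 14 glycogen and glucose phosphate genes 4 were called lower and none higher, with a median of -0.59. In the summed fit none of these 21 had an adjusted p under 0.05, and 13 were lower and none higher at an unadjusted one. TPS1, trehalose 6-phosphate synthase, had 167, 275 and 279 CPM in ZCZ01, against 337, 479 and 458 CPM in wild type (log2 ratio -0.84, SE 0.14, adjusted p = 0.0027). TSL1, a regulatory subunit of the same complex, had 86.0, 132 and 130 CPM in ZCZ01, against 182, 239 and 249 CPM in wild type (-0.96, SE 0.16). Their levels were lowest in experiment 1 in both strains and did not overlap between strains. TPS2, the trehalose phosphatase, gave -0.80 and the trehalase gene NTH2 -0.77, so genes for making and for breaking down trehalose were both lower.

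The same held for glycogen. GSY1, a glycogen synthase, had 58.5, 105 and 87.9 CPM in ZCZ01, against 145, 172 and 190 CPM in wild type (log2 ratio -1.04, SE 0.17). GPH1, glycogen phosphorylase, had 291, 504 and 494 CPM in ZCZ01, against 487, 1010 and 1054 CPM in wild type (-0.95, SE 0.14), where wild type of experiment 1 fell below ZCZ01 of experiments 2 and 3. PGM2, phosphoglucomutase, gave -1.25 (SE 0.18), and GIP2, which directs PP1 to glycogen synthase, -1.23 (SE 0.27), with 28.7, 27.9 and 30.7 CPM in ZCZ01, against 70.7, 73.8 and 61.6 CPM in wild type.

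Of 18 genes for stress hydrophilins and stress-induced membrane proteins, 6 were called lower and none higher, with a median log2 ratio of -0.62, though medians differed between experiment 1 (-0.90) and experiments 2 and 3 (-0.31 and -0.35). MSC1 had 53.0, 122 and 122 CPM in ZCZ01, against 153, 235 and 235 CPM in wild type (-1.13, SE 0.15, adjusted p = 0.000959). DDR48 had 593, 700 and 684 CPM in ZCZ01, against 964, 1254 and 1347 CPM in wild type (-0.84, SE 0.11), and shares its reads with the overlapping frame YMR173W-A. SPI1, a cell wall protein, and STF2, a hydrophilin, gave -1.09 and -1.03. HSP12, a membrane-stabilizing heat shock protein, had 299, 750 and 677 CPM in ZCZ01, against 621, 1702 and 1600 CPM in wild type (-1.16, SE 0.13, adjusted p = 0.000545), and wild type of experiment 1 lay below ZCZ01 of experiments 2 and 3. Of 28 heat shock and chaperone genes, 3 were called lower, HSP12 among them, and 1 higher: SSB1, an Hsp70 that works at the ribosome, with 1792, 1487 and 1471 CPM in ZCZ01, against 1125, 889 and 889 CPM in wild type (0.71, SE 0.10).

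Genes of fat oxidation and respiratory growth included lower ones. Of 43 peroxisome and fatty acid oxidation genes, 6 were called lower and none higher, with a median of -0.31. CTA1, the peroxisomal catalase, had 6, 9 and 6 reads in ZCZ01, against 30, 20 and 42 in wild type (log2 ratio -2.15, SE 0.47), and POX1, the acyl-CoA oxidase, gave -1.42. SPS19 and ECI1, auxiliary enzymes for unsaturated fatty acids, gave -1.29 and -1.28, SPS19 with 28.7, 55.8 and 59.0 CPM in ZCZ01, against 127, 113 and 100 CPM in wild type. Of 8 respiratory growth genes, 3 were called lower: RGI1, with 183, 630 and 585 CPM in ZCZ01, against 734, 1344 and 1337 CPM in wild type (-1.42, SE 0.18, adjusted p = 0.000919), its relative RGI2 (-1.52) and the transcription factor gene USV1 (-1.21). No RGI1 level in ZCZ01 reached the lowest of wild type. Of 41 oxidative phosphorylation genes, 2 were called higher and 3 lower, shares of 4.88 and 7.32% beside the 4.56 and 2.30% over all genes tested. Their median was 0.25, and 18 of the 41 were higher in all 3 experiments and 4 lower in all 3. Among all 5658 genes tested, 1225 were higher in all 3 and 1154 lower in all 3. The largest change among the 5 called was that of CYC7, the minor cytochrome c (-1.16, SE 0.18).

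Other genes with large changes fell outside these groups. The smallest adjusted p of all, 0.000157, was that of YLR154C-G, a short frame within the rDNA (chrXII:462522-462671, minus strand), with 0, 705 and 934 reads in ZCZ01, against 0, 2905 and 3802 in wild type (log2 ratio -2.21). It rests on experiments 2 and 3 alone and was named here after its values were seen. Lower ones were TMA10, which associates with ribosomes (-1.17), DCS2, a regulator of the scavenger decapping enzyme (-1.14), SOL4 of the pentose phosphate pathway (-1.20), the GSK-3 type kinase gene MRK1 (-1.01), the mitochondrial AIM17 (-1.20), LEE1 (-1.21), PHO5, the repressible acid phosphatase (-1.17), and, on 2, 5 and 3 reads in ZCZ01 against 18, 9 and 9 in wild type, the mating fusion gene FUS2 (-1.84). Higher ones were NCE103, carbonic anhydrase (1.55), ALD5, a mitochondrial aldehyde dehydrogenase (1.70), FET4, the low-affinity iron transporter (1.84), and RHR2, a glycerol phosphatase (1.32). ALD5 had 421, 271 and 262 CPM in ZCZ01, against 64.6, 111 and 121 CPM in wild type, so its distance was largest in experiment 1.

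Several lists had few or no calls at 0.5 h. None of 33 proteasome, 10 histone, 16 G1 cyclin and Start, 20 mitotic, 12 septin, 32 DNA replication, 27 ergosterol, 27 autophagy or 17 potassium, sodium and proton transport genes was called by edgeR or DESeq2, and of all these together 4 were higher and 15 lower at an unadjusted p under 0.05, 8 of the 15 in autophagy. Their list medians ran from -0.36 for autophagy to 0.25 for ion transport. Of 25 glycolysis and fermentation genes, TDH1, a glyceraldehyde phosphate dehydrogenase, was called lower (-0.82), and of 36 antioxidant enzymes only CTA1. The share of all genes at an unadjusted p under 0.05 in this fit is not given here. Counts of list members at that p therefore cannot be set against it. Failing the test does not show equal levels.

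How far the 0.5 h ratio differed from the later ones was tested within the same fit. Against 2 h, the ratio of ZCZ01 to wild type was higher at 0.5 h for 1029 genes (18.2%) and lower for 705 (12.5%). Against 4 h it was higher at 0.5 h for 892 (15.8%) and lower for 664 (11.7%). Summed experiments left 472 and 377 against 2 h, and 326 and 303 against 4 h. The 2 h and 4 h libraries come from the same 3 experiments. Of the 258 genes called higher at 0.5 h, 203 differed from 2 h, and 90 of the 258 were called lower at 2 h while 34 were called higher there. Of the 130 called lower at 0.5 h, 86 differed from 2 h, and 50 of the 130 were called higher at 2 h while 37 were called lower there. These genes were chosen by their 0.5 h ratio, which the difference uses again, so a later ratio nearer to 0 or past it is in part fixed by the choice: of the 203, 199 lay in that direction, and of the 86, 80. At 4 h, 31 of the 258 were called in the opposite direction and 81 in the same direction. Of the 130, 48 were called in the opposite direction there and 36 in the same. How many of all genes tested were called at 2 h or 4 h is not given here. Calls at those times among the 258 and the 130 therefore cannot be set against a share over all genes.

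By group, 122 of the 188 assembly factors had a higher ratio at 0.5 h than at 2 h and none a lower one, and their median log2 ratio was 0.88 against -0.23 at 2 h, with 0.38 at 4 h. For the ribosomal protein genes the counts were 112 and 2 of 137, with medians of 0.36, -0.56 and -0.11 at 0.5, 2 and 4 h. Of 18 stress hydrophilin and membrane protein genes, 16 had a lower ratio at 0.5 h than at 2 h and none a higher one, with medians of -0.62, 2.55 and 2.18. Trehalose gave 5 lower and none higher of 7, with medians of -0.77, 1.10 and 0.34. PPZ1 itself gave 5.17, 5.08 and 2.89 in the same order, and its 0.5 h ratio was not distinguishable from that at 2 h (difference 0.09, adjusted p = 0.947).

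Some named genes, picked out after their later values were seen, kept their direction. ARG1 had log2 ratios of 1.75, 2.88 and 3.34 at 0.5, 2 and 4 h, CPA1 1.66, 3.44 and 3.68, and NCE103 1.55, 3.20 and 3.04. ARO9 gave -0.96, -3.25 and -4.04, RGI2 -1.52, -3.11 and -5.12, and MRK1 -1.01, -3.27 and -2.53. For all of these but ARG1 (adjusted p = 0.0913) the 0.5 h ratio was closer to 0 than the 2 h ratio in the test of the difference.

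**Figure D5:**
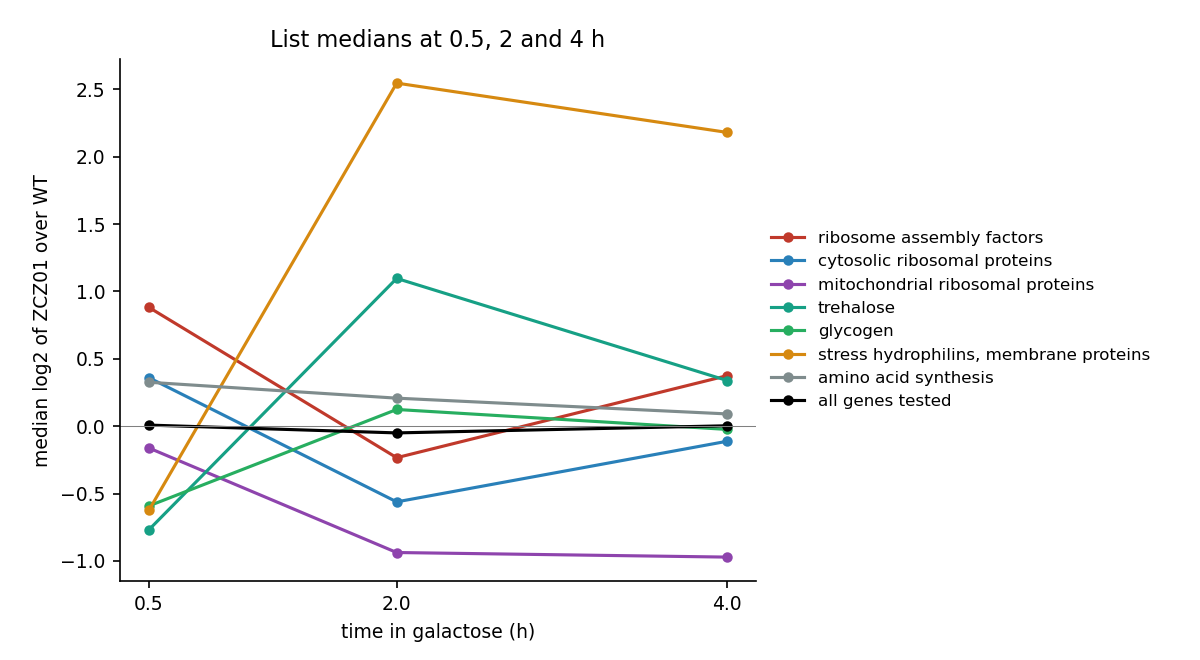
Median log2 ratio of ZCZ01 over WT (vertical) of 7 gene lists and of all genes tested at 0.5, 2 and 4 h in galactose (horizontal). Assembly factors stand at 0.88, -0.23 and 0.38, and stress hydrophilins and membrane proteins at -0.62, 2.55 and 2.18, while all genes stay within 0.05 of 0.

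Reads of a gene can belong to a neighbour that overlaps it, since no source used here gives the strand setting of the counting. Among the genes named above, URA7, CPA1, GPH1, DDR48, IFH1 and TRM9 overlap another annotated frame on the same strand, and VHS3, YDL063C, DBP3, RRP8, NSR1, NOP56, RPC19, RPB8, PUS1, IMD4, ARO9, SPS19, ECI1, RGI1, SSB1, STF2, CYC7, GPH1 and DDR48 on the opposite strand.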

How the data were processed

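The authors deposited 3 tables, 1 for each experiment, of raw read counts for 6692 gene probes, each a gene with 100 nt added downstream. Reads were single-end, 75 nt, from QuantSeq 3′ libraries, and the submitters' processing notes name Bowtie2. No source used here gives the aligner version, build or strand setting. Of the probes, 5992 matched R64 annotation by name or synonym. Reads carried no molecular identifier that could be counted here, so precision is set by depth (1178878 to 1920193 counts at 0.5 h) and by the 3 pairs.

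All 18 libraries entered 1 edgeR 4.0.16 quasi-likelihood fit (R 4.3.3, limma 3.58.1) with TMM scaling, the filter filterByExpr, blocking on the 9 pairs formed by experiment and time and with 1 strain term per time, and Benjamini-Hochberg adjusted p-values over the 5658 genes tested. The pairing follows the study's design, and at 0.5 h same-numbered libraries deviated together (correlations 0.71, 0.55 and 0.58). Experiments 2 and 3 were nearly alike, so their deviations largely mirror that of experiment 1. Correlations between libraries of unlike number were not computed, so these values cannot show pairing within experiment 2 or 3. Each SE given is the absolute log2 ratio divided by the square root of the F statistic of its quasi-likelihood test. Ratios per experiment used a prior count of 2. Motifs were searched by exact letters. The fit was also run on simulated counts, drawn for each library independently and without differences between experiments. That run cannot show how the fit treats the likeness of experiments 2 and 3. Alternatives were other scalings, filters, blocks, DESeq2 1.42.0 and an ordinary t-test on 3 log2 ratios with unadjusted p. Others were summed experiments, the times of the sample titles and each experiment left out.

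Gene lists and genes were chosen with earlier results of these data known. Genes named were PPZ1 and its neighbours; in each direction, the 12 largest changes and the 12 smallest p among called genes of 1 sign in all experiments, leaving out the genes of lowest level; and up to 4 members per list, called ones first, of which the text names a part. Other genes are marked as chosen after their values were seen. The result for 1 gene is not reported here.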

Additional observations from a re-analysis of the deposited data

Results flagged for a closer look

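The ratio of ZCZ01 to wild type differed between times in the test of the difference itself. It was higher at 0.5 h than at 2 h for 1029 genes and lower for 705, and higher at 0.5 h than at 4 h for 892 and lower for 664.

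Among the genes named for the size or the p of their 0.5 h change, 17 were called in opposite directions at 0.5 h and 2 h. Their choice by the 0.5 h ratio enters these differences. Those higher at 0.5 h and lower at 2 h are given by the 0.5 h log2 ratio minus the 2 h log2 ratio: 2.97 for AAH1, 2.46 for URA7, 2.30 for NOP7, 2.11 for RRP8, 1.98 for YBL028C and 1.87 for RPF1. Those lower at 0.5 h and higher at 2 h gave differences of -4.81 for HSP12, -4.10 for MSC1, -3.47 for SOL4, -3.29 for YMR173W-A, -3.25 for the overlapping DDR48, -3.19 for PHO5, -2.84 for DCS2, -2.39 for CYC7, -2.05 for SPS19, -1.97 for GPH1 and -1.92 for PGM2.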

How the results depend on the processing

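Counts are given as higher and lower calls, those by 2-fold, then assembly factors higher, glycogen and trehalose genes lower and ribosomal protein genes higher. They were 258, 130, 106, 36, 112, 9 and 27 in the fit reported. With no replicate block, 123 genes were higher, 22 lower and 9 lower by 2-fold, with 73, 1 and 0 in the lists, and the 0.5 h ratio was above the 2 h ratio for 601 genes and below it for 443, and above the 4 h ratio for 506 and below it for 380. With 1 replicate block per experiment, 70 were lower and 9 ribosomal protein genes higher. From the 0.5 h libraries alone, 70 were higher, 38 lower and 47 higher by 2-fold, with 37 assembly factors and 4 ribosomal protein genes. From 3 log2 ratios, 414 were higher and 388 lower at an unadjusted p under 0.05, with 52 ribosomal protein genes. These counts are therefore not calls as defined above. With total counts scaling, 9 ribosomal protein genes were higher. With experiments 2 and 3 summed, 5 were higher and 0 lower, 5 and 0 by 2-fold, with 3, 0 and 0 in the lists, and 472 above and 377 below the 2 h ratio, and 326 above and 303 below the 4 h ratio.

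Leaving out 1 experiment at a time gave 11 to 778 higher and 3 to 660 lower, 11 to 155 and 3 to 67 by 2-fold, 7 to 139, 0 to 14 and 0 to 116 in the lists, 430 to 1332 above and 309 to 1022 below the 2 h ratio, and 271 to 1299 above and 233 to 1078 below the 4 h ratio, the high ends without experiment 1. GLC7 ran from -0.67 without experiment 1, where it reversed, to 0.81 without experiment 2.

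With the times of the sample titles, which join libraries of different library-name times, every one of these counts was 0, with 302 higher and 384 lower at an unadjusted p under 0.05. The ribosomal protein median reversed to -0.13, and log2 changes reversed to -0.13 for MTR4, -0.13 for KAP123, -0.28 for RPL25, -0.53 for RPL9A, -0.10 for RPS0B, -0.24 for TRM1, -0.092 for AAH1, -0.38 for GUA1, -0.80 for IMD2, -0.16 for URA7, -0.069 for PRS3 and -0.23 for SSB1. They reversed to 0.036 for TPK2, 0.11 for BCY1, 0.079 for GIP2, 0.41 for GPH1, 0.44 for TPS1, 0.64 for CTA1, 0.38 for POX1, 1.86 for HSP12, 1.39 for MSC1, 1.58 for SPI1, 0.30 for STF2, 1.47 for DDR48, 1.47 for YMR173W-A, 0.90 for DCS2, 1.06 for SOL4, 0.62 for FUS2, 1.62 for PHO5 and 1.82 for TDH1. Of 93 named called genes, none reversed in any other setting. From 3 log2 ratios, 72 of the 93 had an unadjusted p under 0.05 in the same direction. Calls of the 93 were kept in 84 with DESeq2, 45 with no replicate block and 80 with 1 replicate block per experiment. They were kept in 5 with experiments 2 and 3 summed, and in 92, 15 and 12 without experiments 1, 2 and 3. From the 0.5 h libraries alone, 56 of 92 kept theirs. The causes were not tested.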
